A study of Homo sapiens with 60 samples.

Results

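Okbyeongpung-san is a herbal decoction of East Asian medicine that contains Saposhnikoviae Radix. A549 cells, an established human lung adenocarcinoma line, received its hot-water extract at 500 µg/mL for 24 h and were compared with cells given DMSO vehicle for 24 h. The comparison used 6 of the 60 RNA sequencing libraries of the series, 3 treated and 3 vehicle, which were chosen by extract, dose and time and by no measured value. Set beside them, with 3 libraries each and also at 24 h, were hot-water extracts too: Okbyeongpung-san at 20 and 100 µg/mL, Soyo-san, another decoction, at 500 µg/mL, and Saposhnikoviae Radix alone at 500 µg/mL. The vehicle was 0.1% DMSO by the labels of its own libraries and 2% by the overall description of the study. Whether the extract cultures also held DMSO was not given in the sources used here. That description also says that extracts whose 20% inhibitory concentration lay under 500 µg/mL were dosed by that concentration instead, while the labels of Okbyeongpung-san print 20, 100 and 500 µg/mL. A549 is 1 transformed epithelial line grown without immune cells, and no label tells whether replicate libraries were grown as separate cultures. The p-values below therefore cover the spread between libraries alone, which may be technical. For genes, that spread was estimated over 57 libraries of the series in 19 groups of 3, not over these 6 alone. Some of those groups were far more uneven. Replicate counts differed by a chi-square per degree of freedom of up to 73.62 in Saengmaek-san at 100 µg/mL. In Okbyeongpung-san at 500 µg/mL and in vehicle it was at most 2.387 and 2.707.

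The largest rises included chemokines and other genes of the NF-kB, complement and acute phase lists. NF-kB is a family of transcription factors held in the cytoplasm by IkB proteins; signals from cytokine and pattern recognition receptors free it, and it then switches on chemokines, adhesion molecules, complement proteins and its own inhibitors. In lung epithelium this programme calls neutrophils and monocytes to the airway through CXC and CC chemokines. The falls named here belonged in part to another system, the targets of the coactivator YAP with TEAD factors, which respond to cell shape and attachment.

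The promoters shown are those of the chemokine and cytokine genes that rose and were in the promoter table, 5 CXC chemokine genes and IL32. The CC chemokine gene CCL2 and the cytokine gene LIF, which also rose, were not in it, nor was CCN1. The sequences run from 250 bases before to 50 bases after the annotated start, 5′ to 3′ on the strand of the gene, from RefSeq on GRCh38.p14. Capitals mark a match to the NF-kB letter patterns GGAANTTCC or GGNNTTTCC on either strand.
CXCL1, chr4:73869143-73869442, plus strand: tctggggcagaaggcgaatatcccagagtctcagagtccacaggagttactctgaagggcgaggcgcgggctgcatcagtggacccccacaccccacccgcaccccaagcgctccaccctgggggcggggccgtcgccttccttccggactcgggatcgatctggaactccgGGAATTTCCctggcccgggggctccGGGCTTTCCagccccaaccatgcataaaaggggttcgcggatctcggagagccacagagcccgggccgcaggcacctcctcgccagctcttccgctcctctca
CXCL2, chr4:74099146-74099445, minus strand: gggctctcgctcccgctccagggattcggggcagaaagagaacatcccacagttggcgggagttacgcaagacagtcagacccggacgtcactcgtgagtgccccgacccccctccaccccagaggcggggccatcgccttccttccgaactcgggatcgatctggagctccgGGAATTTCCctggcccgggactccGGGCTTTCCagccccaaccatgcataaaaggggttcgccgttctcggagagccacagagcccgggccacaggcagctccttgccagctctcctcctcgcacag
CXCL3, chr4:74038640-74038939, minus strand: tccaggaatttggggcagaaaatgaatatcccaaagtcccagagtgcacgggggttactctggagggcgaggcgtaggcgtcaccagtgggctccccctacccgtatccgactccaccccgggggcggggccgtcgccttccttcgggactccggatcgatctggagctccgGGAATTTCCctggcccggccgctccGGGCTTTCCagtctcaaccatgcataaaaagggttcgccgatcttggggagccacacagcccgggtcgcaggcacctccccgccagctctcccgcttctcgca
CXCL5, chr4:73998628-73998927, minus strand: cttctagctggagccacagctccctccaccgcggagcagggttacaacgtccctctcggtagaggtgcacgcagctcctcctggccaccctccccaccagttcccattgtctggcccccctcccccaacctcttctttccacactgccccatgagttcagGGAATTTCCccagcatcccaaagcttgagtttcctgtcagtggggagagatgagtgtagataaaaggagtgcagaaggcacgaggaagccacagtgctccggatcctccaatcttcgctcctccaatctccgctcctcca
CXCL8, chr4:73740319-73740618, plus strand: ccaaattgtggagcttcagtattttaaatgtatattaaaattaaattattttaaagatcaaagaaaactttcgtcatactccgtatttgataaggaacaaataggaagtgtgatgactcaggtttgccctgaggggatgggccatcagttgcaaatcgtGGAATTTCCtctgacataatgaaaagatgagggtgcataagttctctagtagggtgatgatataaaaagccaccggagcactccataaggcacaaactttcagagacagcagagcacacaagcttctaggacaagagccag
IL32, chr16:3065153-3065452, plus strand: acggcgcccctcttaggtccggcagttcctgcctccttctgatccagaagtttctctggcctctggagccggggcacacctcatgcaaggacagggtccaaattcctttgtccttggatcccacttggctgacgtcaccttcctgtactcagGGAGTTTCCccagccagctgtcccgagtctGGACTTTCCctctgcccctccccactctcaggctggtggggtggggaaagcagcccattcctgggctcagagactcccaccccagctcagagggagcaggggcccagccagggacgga
CXCL1, CXCL2, CXCL3, CXCL5 and CXCL8 each held GGAATTTCC, which began 78, 77, 78, 90 and 91 bases before the start, in that order of genes. CXCL1, CXCL2 and CXCL3 also held GGGCTTTCC, in each from 53 bases before the start. IL32 held GGAGTTTCC from 98 and GGACTTTCC from 68 bases before it. The search patterns overlap each other, as in GGAATTTCC, which matches both. Of 35116 promoters of this length, 0.965% held GGAANTTCC, 6.26% held GGNNTTTCC and 6.73% held either. Of the 17 genes that were higher at 500 than at 20 µg/mL (below), 13 were in the promoter table and 7 held either pattern, the other one being TNFAIP3. CFB, PDZK1IP1, IRAK2, ZC3H12A, SOD2 and RHBDF2 held neither. The stretch around the matches is nearly the same in CXCL1, CXCL2 and CXCL3, so their matches are not independent. The count was not tested against the share of all promoters. A match is a description of the letters and not of binding, which was not measured.

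Library totals ran from 22719326 to 35308791 counts in the 6 libraries. Mitochondrially encoded genes took on average 14.56 ± 0.318% of counts in Okbyeongpung-san at 500 µg/mL and 12.31 ± 0.2261% in vehicle (SD, n = 3 each; exact two-sided permutation p = 0.1, the smallest that 3 against 3 libraries allow). This share stepped along the order of library names. It ran from 10.71 to 13.86% in the 31 libraries up to the step, which hold all vehicle libraries, and from 12.92 to 22.15% in the 29 after it, which hold all Okbyeongpung-san and Soyo-san libraries. In the 6 libraries alone the extract and the library order therefore cannot be told apart. The vehicle libraries also have a name series of their own, placed first in the order here, which no extract library shares. A term for the step cannot take up a difference between that series and all others. The step does not separate the doses of Okbyeongpung-san from each other or from Soyo-san. A fit with a term for the step, which takes its size from the Saengmaek-san and Guibi-tang groups that lie across it, is quoted beside the calls that it ended or made among the genes given with values below. Libraries of those groups after the step had a mitochondrial share of 15.09 to 22.15%, against 14.27 to 14.9% in Okbyeongpung-san at 500 µg/mL. For mitochondrially encoded genes the term had a median log2 value of 0.711, against 0.277 between Okbyeongpung-san at 500 µg/mL and vehicle. The term may thus be too large for these libraries, and whether its size holds for them was not tested. Of the 5 A549 markers examined, EPCAM, KRT8, KRT18, CDH1 and AKR1B10, summed levels were 7370 to 7780 CPM in Okbyeongpung-san and 8860 to 9010 CPM in vehicle, and fewer cells with a transcript and less of it per cell cannot be told apart in such bulk libraries. Blood cell markers summed to 2.28 to 2.67 CPM in Okbyeongpung-san and 2.15 to 2.79 CPM in vehicle, with PTPRC and CD3E, 2 of the 5, at 0 in all 6 libraries and CD14 averaging 2.46 and 2.5 CPM in the same 2 groups. Endothelial markers summed to under 1 CPM and hepatocyte markers to 0 to 0.0415 CPM, with APOA2 at 0 in all 6 libraries, and fibroblast markers to 34.5 to 38.1 CPM in Okbyeongpung-san and 32.1 to 35.3 CPM in vehicle, led by COL1A1.

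Between Okbyeongpung-san at 500 µg/mL and vehicle, 585 of 17256 genes tested differed (3.39%; edgeR quasi-likelihood test, Benjamini-Hochberg adjusted p under 0.05, the threshold for every gene called here). Of these, 338 rose (1.96% of genes tested) and 247 fell (1.43%). Most changes were small: 305 of the 338 and 229 of the 247 were under 1.5-fold, and the median log2 fold change was 0.275 among the genes that rose and -0.214 among those that fell. The rises of 2-fold or more numbered 13 (0.0753%) and the falls 7 (0.0406%). None of these 7 falls passed the filters on level, overlap and symbol for ranked genes, and they are not named here. Among the 13 rises, listed without these filters, were CXCL1, CXCL8, LCN2, ICAM1, IL32, PDZK1IP1, CFB, CXCL2 and CCL2. The others were HES7, a transcriptional repressor downstream of Notch, TOB2P1, a pseudogene, and 2 genes without a symbol, ENSG00000258691 and ENSG00000279716. PDZK1IP1 and these last 4 belong to none of the gene lists used here. Over all genes the median log2 fold change was 0.00148. All 3 treated libraries lay above all 3 vehicle libraries in 13.6% of the genes tested and below them in 19.1%, which is the background for each statement below that the groups did not overlap. Genes named by their rank in size of change had to show no overlap to be ranked. For them, BTG2 included, the lack of overlap was fixed by the choice and is no further support. With the step term the counts were 932 rises and 1222 falls, of which 185 and 101 were among the genes first called. With library totals in place of TMM scaling they were 198 rises and 67 falls, and with any 1 of the 6 libraries left out between 272 and 340 genes were called in all.

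**Figure D1:**
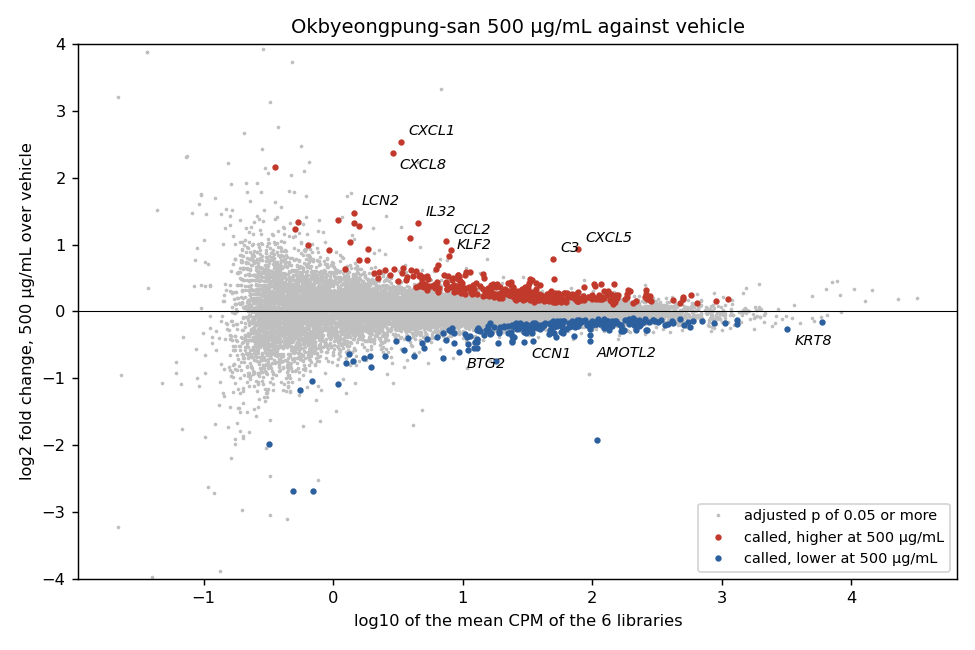
Each point is a gene tested; the x axis is log10 of its mean CPM (its counts scaled to the library total) over the 6 libraries and the y axis its log2 fold change, Okbyeongpung-san 500 µg/mL over vehicle, with genes called higher in red and lower in blue. CXCL1 at 2.53 and CXCL8 at 2.37 stand above the other named genes, and CCN1, AMOTL2 and KRT8 lie below 0; 41 genes past 4 on the y axis or at 0 CPM in all 6 libraries are not drawn.

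All 5 tested members of the neutrophil CXC chemokine list rose, with a median log2 fold change of 1.103, and CXCL6 was too low to test. This list and those below were chosen with earlier results of these data known, so their counts are no independent support. CXCL1, a ligand of the neutrophil receptor CXCR2, gave 6.16, 5.32 and 5.73 CPM in the Okbyeongpung-san libraries, against 0.998, 0.906 and 1.09 CPM in vehicle. Every treated library lay several times above every vehicle library. Its log2 fold change was 2.53 ± 0.20 (SE; adjusted p = 1.62e-12). CXCL8, or interleukin 8, which signals through CXCR1 and CXCR2, gave 4.53, 5.15 and 4.79 CPM in treated cells and 0.998, 1.13 and 0.662 CPM in vehicle. All 3 treated libraries stood well above vehicle, with a log2 fold change of 2.37 ± 0.17 (adjusted p = 1.87e-13). CXCL2 had 5.46, 5.52 and 4.9 CPM in treated cells against 2.48, 2.44 and 2.55 CPM in vehicle, again without overlap, and a log2 fold change of 1.10 ± 0.13 (adjusted p = 1.98e-07). CXCL3 averaged 2.45 ± 0.432 CPM in treated cells and 1.3 ± 0.122 CPM in vehicle (SD, n = 3 each), with a log2 fold change of 0.93 ± 0.18 (edgeR adjusted p = 0.00105). CXCL1, CXCL2 and CXCL3 are close in sequence, and how the counting step shared reads between them is not known, so their separate values are uncertain. CXCL5, another CXCR2 ligand, gave 99.1, 104 and 103 CPM in treated cells against 55, 52.1 and 54.7 CPM in vehicle. The libraries within each group differed little, and its log2 fold change of 0.93 ± 0.05 had an adjusted p of 3.35e-19. All 5 genes lie on chromosome 4.

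Of 23 other chemokines and cytokines listed, 8 were expressed enough to test and 3 of them rose. IL32, a cytokine made by epithelial and lymphoid cells, gave 7.26, 5.98 and 6.24 CPM in treated cells and 2.41, 2.46 and 2.98 CPM in vehicle. The treated libraries all lay far above vehicle, and the log2 fold change was 1.32 ± 0.17 (adjusted p = 6.94e-07). CCL2, which attracts monocytes, had 9.95, 9.3 and 10.8 CPM in treated cells against 4.44, 4.79 and 5.43 CPM in vehicle, with a log2 fold change of 1.05 ± 0.16 (adjusted p = 1.98e-05); the step term lowered this to 0.52 (adjusted p = 0.00272). LIF, a cytokine of the interleukin 6 family, rose slightly, with 79.1 ± 0.567 CPM in treated cells and 72 ± 2.76 CPM in vehicle (SD, n = 3 each), a log2 fold change of 0.15 (edgeR adjusted p = 0.0272) that was not called with the step term (adjusted p = 0.123) and was called in 1 of 6 fits that left out a library (adjusted p up to 0.18). CSF1 at 0.12 and IL18 at -0.03 did not pass (adjusted p = 0.299 and 0.906), while the step term gave IL18 -0.28 (adjusted p = 0.00117). IL1A, IL1B, IL6, TNF, CSF2, CSF3, CCL5, CCL20 and CXCL10 were among the 15 that were too low to test.

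**Figure D2:**
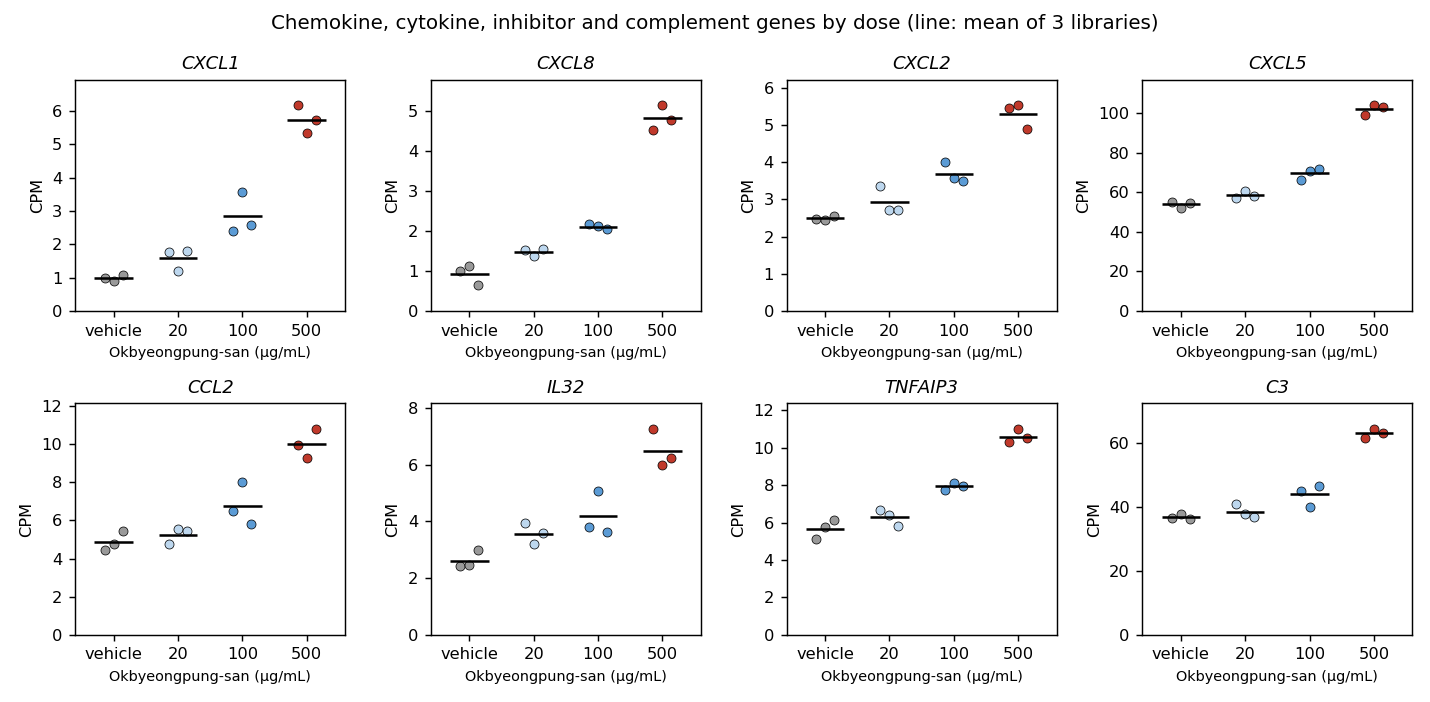
CPM of 8 genes in each of 3 libraries (points) and their mean (line), for vehicle and for Okbyeongpung-san at 20, 100 and 500 µg/mL. In all 8 panels the 3 libraries at 500 µg/mL lie above all other points; CXCL5 means run 53.9 CPM, 58.8 CPM, 69.6 CPM and 102 CPM from vehicle to the highest dose.

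Some genes that restrain NF-kB rose as well, while the inhibitors NFKBIB, NFKBIE, TNIP1, TNIP2 and CYLD did not pass. In the list of NF-kB subunits and feedback inhibitors 6 of 19 members rose and none fell, with a median log2 fold change of 0.199 over the 19. TNFAIP3, or A20, an enzyme that ends NF-kB signalling by editing ubiquitin chains, gave 10.3, 11 and 10.5 CPM in treated cells against 5.13, 5.75 and 6.12 CPM in vehicle. These groups did not overlap, and the log2 fold change was 0.92 ± 0.10 (adjusted p = 5.21e-08). NFKBIA, which encodes IkB alpha, had 61.4, 56.2 and 59.9 CPM in treated cells and 43.4, 41.2 and 43.2 CPM in vehicle, a log2 fold change of 0.49 ± 0.07 (adjusted p = 2.56e-06). NFKBIZ, a nuclear IkB protein, had a log2 fold change of 0.60 ± 0.09 (adjusted p = 1.45e-05). BIRC3, a ubiquitin ligase of the TNF receptor complex, BCL3, another nuclear IkB protein, and the precursor gene NFKB2 had log2 fold changes of 0.38, 0.36 and 0.28 in that order. BCL3 was not called with the step term, at 0.11 (adjusted p = 0.407). RELA, the main activating subunit, averaged 78 ± 0.633 CPM in treated cells and 72.9 ± 2.14 CPM in vehicle (SD, n = 3 each) and did not pass (edgeR adjusted p = 0.524). Among receptors and adaptors 1 of 17 rose, IRAK2, a kinase of the interleukin 1 and Toll-like receptor pathway, with 11.7, 11.2 and 9.8 CPM in treated cells and 7.95, 7.36 and 7.71 CPM in vehicle (log2 fold change 0.52 ± 0.08, adjusted p = 6.85e-05). ZC3H12A, an RNase that degrades cytokine transcripts, was named because it also differed between doses, and its log2 fold change against vehicle was 0.41 ± 0.07 (adjusted p = 0.000134).

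Of 15 tested NF-kB effector genes 3 rose and none fell. ICAM1, the adhesion molecule that holds leukocytes on epithelium and endothelium, gave 1.94, 1.37 and 1.41 CPM in treated cells and 0.482, 0.765 and 0.562 CPM in vehicle. The counts were low but did not overlap, and the log2 fold change was 1.37 ± 0.31 (adjusted p = 0.00529). EFNA1, a ligand of Eph receptors, and TNFAIP8 had log2 fold changes of 0.59 and 0.35 (adjusted p = 0.000122 and 0.000551). SOD2 and PTGS2, which encode a mitochondrial dismutase and cyclooxygenase 2, had 0.11 and 0.14 and did not pass against vehicle. With the step term they read 0.28 (adjusted p = 2.3e-06) for SOD2 and 0.28 (adjusted p = 0.0144) for PTGS2. Without replicate 1 of Okbyeongpung-san the ICAM1 call was lost (adjusted p = 0.0551).

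Complement genes rose in part: 3 of 14 were higher and none lower, with a median log2 fold change of 0.011 over the 14. C3, the central protein of the cascade, gave 61.6, 64.4 and 63.2 CPM in treated cells against 36.6, 37.8 and 36.4 CPM in vehicle. The 2 groups were far apart relative to their spread (log2 fold change 0.79 ± 0.07, adjusted p = 3e-11). CFB, factor B of the alternative pathway, had 2.07, 2.49 and 2.08 CPM in treated cells and 1.1, 0.595 and 1.09 CPM in vehicle, a log2 fold change of 1.28 ± 0.21 (adjusted p = 0.00011). C5 rose by less, at 0.18 ± 0.05 (adjusted p = 0.0165), and lost its call without replicate 2 of Okbyeongpung-san or replicate 2 or 3 of vehicle (adjusted p up to 0.0989). The surface inhibitors CD46 and CD59 had -0.03 and -0.15 and did not pass, while CD46 was higher with the step term, at 0.19 (adjusted p = 0.00131). In the acute phase list 1 of 9 tested members rose, LCN2, or lipocalin 2, which withholds iron from bacteria. It gave 2.38, 1.79 and 2.24 CPM in treated cells and 0.723, 0.821 and 0.761 CPM in vehicle, a log2 fold change of 1.48 ± 0.24 (adjusted p = 0.000122). The fibrinogen chains FGA and FGB, abundant in these cells, had log2 fold changes of -0.05 and -0.01 and did not pass; with the step term FGB was lower, at -0.21 (adjusted p = 0.00577). Interferon response and MHC class I genes had 0 of 28 called in either direction by edgeR or DESeq2, with 3 higher at an unadjusted p under 0.05 and a median of 0.094; B2M, the light chain of MHC class I, was at 0.14, and at -0.25 with the step term (adjusted p = 0.00826).

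**Figure D3:**
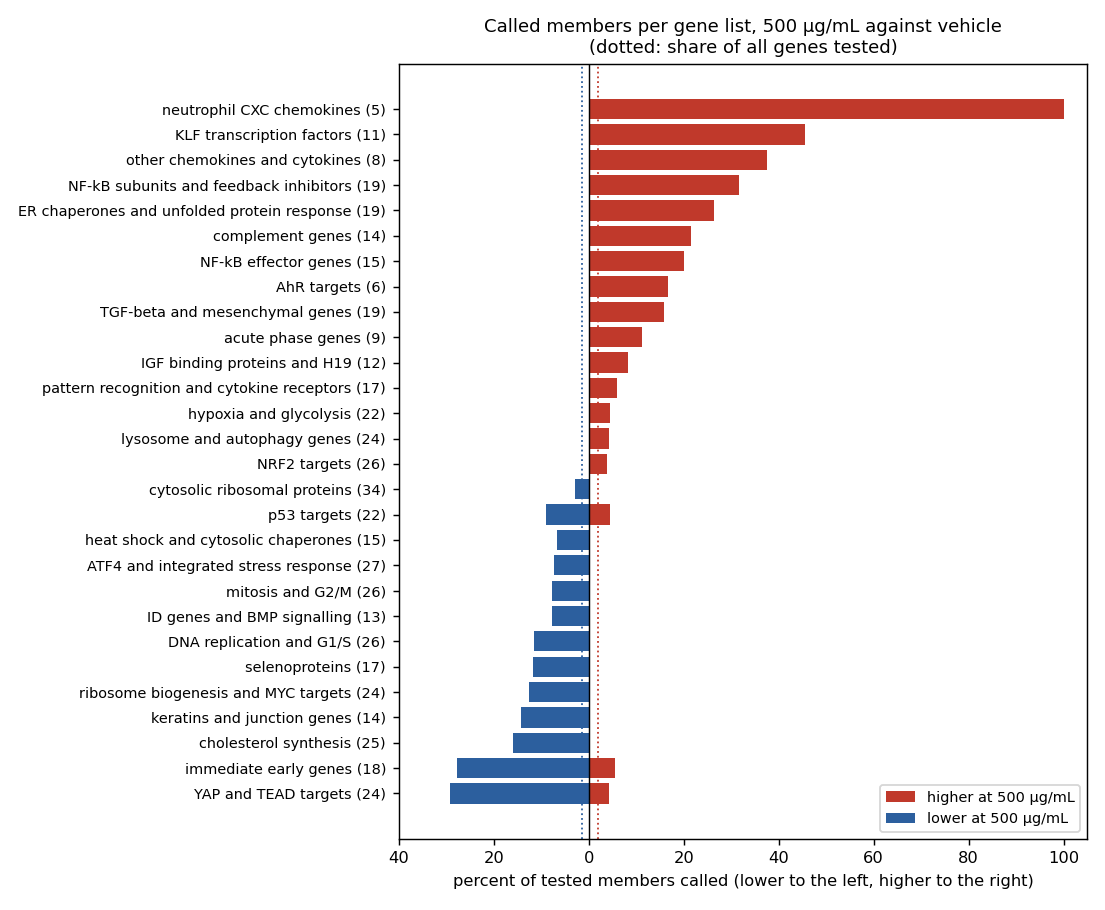
For each gene list with a called member, bars give the percent of tested members called higher (red, right) or lower (blue, left) in Okbyeongpung-san 500 µg/mL against vehicle, the number tested is in brackets and dotted lines mark 1.96 and 1.43%, the shares of all genes tested called higher and lower. The neutrophil CXC chemokines reach 5 of 5 higher and the YAP and TEAD targets 7 of 24 lower. Lists and members were chosen with earlier results of these data known, so shares above the dotted lines are not independent of that choice.

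Between the doses, 17 genes differed at 500 against 20 µg/mL of Okbyeongpung-san (0.0985% of 17256 tested; edgeR), all higher at 500, with 0 lower by edgeR, 1 lower by DESeq2 and 663 genes (3.84%) at an unadjusted p under 0.05 in either direction. All 6 libraries lie after the step, but replicate 3 at 20 µg/mL stood apart. Mitochondrially encoded genes took 18.37% of its counts, against 14.44 and 14.7% in replicates 1 and 2. Its counts differed from theirs by a chi-square per degree of freedom of 13.02 and 12.32, against 2.56 between those 2. Without it 14 genes were called, 13 higher and 1 lower. With the step term and all 6 libraries the 17 were still called. Among them were the 5 CXC chemokines, CCL2, IL32, CFB, C3, TNFAIP3, PDZK1IP1, C1QTNF1, IRAK2, ZC3H12A, SOD2 and RHBDF2. CXCL1 gave 6.16, 5.32 and 5.73 CPM at 500 µg/mL, against 1.76, 1.19 and 1.8 CPM at 20 µg/mL, a log2 fold change of 1.82 ± 0.20 (adjusted p = 3.29e-08). For CXCL8 the values were 4.53, 5.15 and 4.79 CPM at 500 µg/mL and 1.52, 1.38 and 1.56 CPM at 20 µg/mL, a log2 fold change of 1.67 ± 0.17 (adjusted p = 1.01e-08). By comparison, 8.65% of the genes tested had all libraries at 500 above all at 20 µg/mL, and 2.83% had them below. In both genes all libraries of the higher dose exceeded all of the lower dose. CXCL5 had 99.1, 104 and 103 CPM at 500 µg/mL against 57.2, 60.9 and 58.4 CPM at 20 µg/mL (0.77 ± 0.05, adjusted p = 1.13e-15). CFB differed by 1.47 ± 0.23, C3 by 0.69 ± 0.07, CCL2 by 0.91 ± 0.16 and TNFAIP3 by 0.72 ± 0.11 on the log2 scale. The smallest of the 17 was RHBDF2, a rhomboid-like protein needed for release of TNF, at 0.22 ± 0.05 (adjusted p = 0.0258).

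Without 1 of the 6 libraries in turn, 10 to 14 genes were called between the doses, and CXCL1, CXCL8, CXCL2, CXCL5, CFB, TNFAIP3, C3 and C1QTNF1 were among those called in 6 of 6 fits. CCL2 was called in 5 of 6, CXCL3 and IRAK2 in 4 of 6, IL32, ZC3H12A, RHBDF2 and SOD2 in 1 of 6, and PDZK1IP1 in 0 of 6. The highest adjusted p in these fits was 0.0775 for CCL2, 0.0566 for IRAK2, 0.0954 for CXCL3, 0.234 for IL32 and 0.359 for PDZK1IP1. LCN2 and ICAM1 did not pass between the doses, at 0.80 ± 0.24 and 1.04 ± 0.32 (adjusted p = 0.607 and 0.613). RHBDF2 was called against vehicle, at 0.21, but not with the step term (adjusted p = 0.0609). SOD2 was the only 1 of the 17 not called against vehicle: it gave 78.5, 83.3 and 81.2 CPM at 500 µg/mL and 66.4, 67.2 and 65.7 CPM at 20 µg/mL, with vehicle in between at 75.8, 76 and 74.9 CPM.

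At 100 µg/mL 237 genes differed from vehicle (1.37% of those tested; 126 higher, 0.73%, and 111 lower, 0.643%), and at 20 µg/mL 188 did (1.09%; 104 higher, 0.603%, and 84 lower, 0.487%). With any 1 library left out these counts were 70 to 303 and 70 to 117, the 303 without replicate 2 at 100 µg/mL. These comparisons share the vehicle libraries with that at 500 µg/mL. CXCL1 stood at 1.76, 1.19 and 1.8 CPM at 20 µg/mL, 2.41, 3.58 and 2.57 CPM at 100 µg/mL and 6.16, 5.32 and 5.73 CPM at 500 µg/mL. Against vehicle its log2 fold change was 0.71 at 20 (adjusted p = 0.133), 1.53 at 100 (adjusted p = 3.1e-05) and 2.53 at 500 µg/mL. CXCL8 had 0.70, 1.20 and 2.37 at the same doses, and CXCL5 0.17, 0.40 and 0.93. At 20 µg/mL neither of these 2 passed (adjusted p = 0.0748 and 0.0744), and at 100 µg/mL both did. Both passed at 20 µg/mL too with the step term (adjusted p = 0.0298 and 0.0021). CFB was at -0.19, 0.30 and 1.28 and passed at 500 µg/mL alone among the doses. NFKBIA was called at every dose, at 0.35, 0.44 and 0.49 from low to high, although not at 20 µg/mL with the step term (adjusted p = 0.0586); its difference between 500 and 20 µg/mL was 0.14 ± 0.07 (adjusted p = 1).

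The falls included targets of YAP and TEAD, of which 7 of 24 fell and 1 rose, with a median log2 fold change of 0.005 over the 24. CCN1, a secreted matrix protein of the CCN family, gave 22.7, 26.5 and 25.5 CPM in the Okbyeongpung-san libraries at 500 µg/mL, against 33.1, 33.7 and 36.5 CPM in vehicle. The treated libraries all lay below vehicle, and the log2 fold change was -0.45 ± 0.05 (adjusted p = 5.21e-08). AMOTL2, a junction protein that binds YAP, had 78.9, 82.3 and 80.2 CPM in treated cells and 109, 108 and 113 CPM in vehicle, with little spread in either group (-0.44 ± 0.04, adjusted p = 2.95e-12). ANKRD1, an ankyrin repeat protein, had 9.9, 10.6 and 10.5 CPM in treated cells against 15.9, 14.5 and 15.6 CPM in vehicle (-0.55 ± 0.08, adjusted p = 3.68e-06). NUAK2, CCN2, AXL and LATS2 fell by less, with log2 fold changes of -0.33, -0.26, -0.21 and -0.18, and NT5E, an ectoenzyme that makes adenosine, rose at 0.26. With the step term CCN1, AMOTL2, ANKRD1 and CCN2 were still called, at -0.50, -0.41, -0.60 and -0.24. The other 4 were not: NUAK2 read -0.09, AXL -0.08, LATS2 -0.08 and NT5E 0.15 (adjusted p = 0.288, 0.146, 0.367 and 0.0519).

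CCN1 and AMOTL2 were also below vehicle at the lower doses. CCN1 gave 26.1, 27.4 and 23.2 CPM at 20 and 25.8, 27.6 and 24.8 CPM at 100 µg/mL, and its difference between 500 and 20 µg/mL was -0.06 ± 0.05 on the log2 scale. AMOTL2 averaged 84.1 ± 1.51 CPM at 20, 82.7 ± 3.05 CPM at 100 and 80.5 ± 1.69 CPM at 500 µg/mL (SD, n = 3 each), a log2 difference of -0.09 ± 0.04 between 500 and 20. ANKRD1 averaged 12.9 CPM, 12.1 CPM and 10.3 CPM in the same order, and its difference of -0.34 ± 0.08 between 500 and 20 µg/mL did not pass (adjusted p = 0.0701). At every dose these falls and the library order move together, and the part of the order in them was not tested beyond the step term. All libraries at 100 µg/mL lay above all vehicle libraries in 8.3% of genes tested and below them in 15.7%, and at 20 µg/mL in 7.19 and 19.9%.

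**Figure D4:**
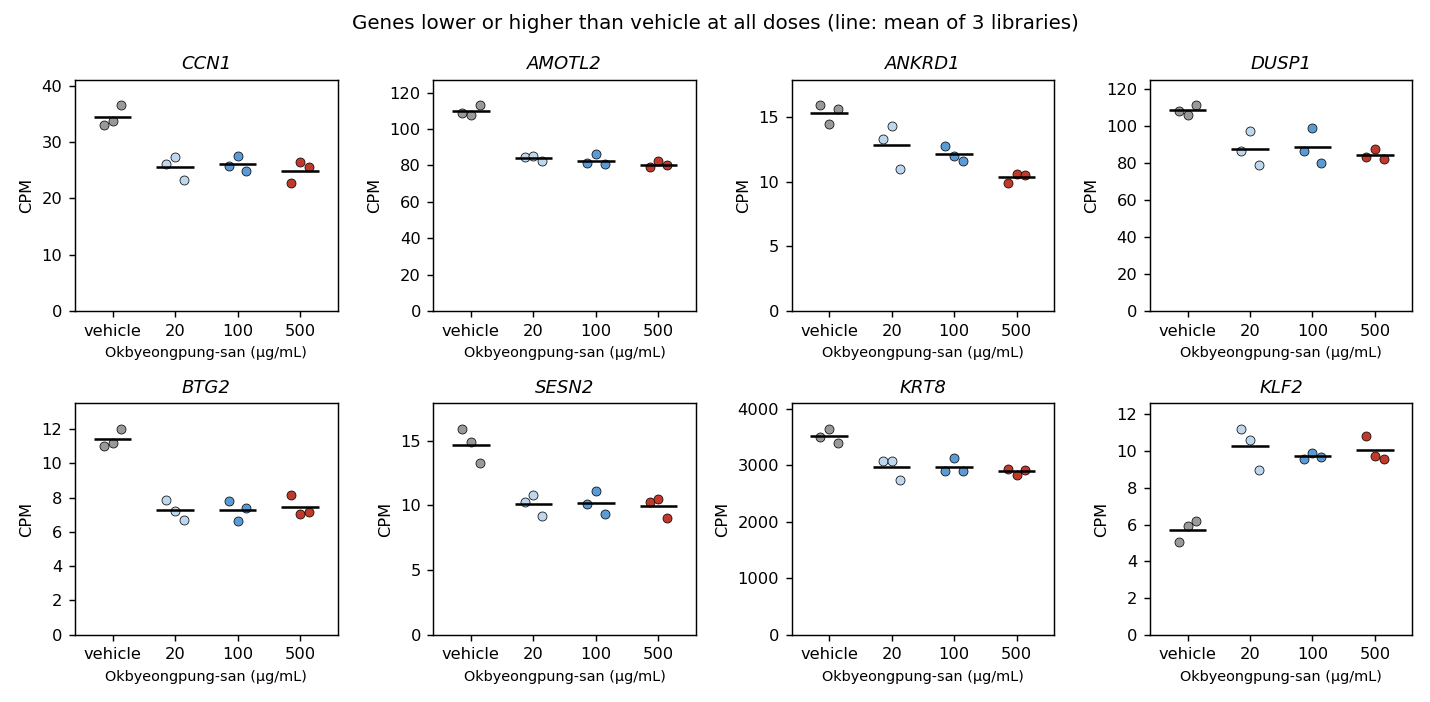
CPM of 8 genes in each of 3 libraries (points) and their mean (line), for vehicle and for Okbyeongpung-san at 20, 100 and 500 µg/mL. In every panel all libraries of every dose lie on 1 side of vehicle: 7 genes lie below it and KLF2 above it, and the CCN1 means at 20, 100 and 500 µg/mL are 25.5 CPM, 26.1 CPM and 24.9 CPM, against 34.5 CPM in vehicle.

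Immediate early genes, which respond within minutes to growth factors and stress, had 5 of 18 lower and 1 higher. BTG2, an antiproliferative gene, gave 8.14, 7.06 and 7.14 CPM in treated cells and 11, 11.2 and 12 CPM in vehicle, a log2 fold change of -0.60 ± 0.10 (adjusted p = 0.000197), and its changes at 20 and 100 µg/mL were -0.61 and -0.62. DUSP1, a phosphatase of MAP kinases, had 83.2, 87.4 and 82 CPM in treated cells against 108, 106 and 111 CPM in vehicle (-0.35 ± 0.06, adjusted p = 0.000197). Both were lower in every treated library than in any vehicle library. The orphan receptors NR4A1 and NR4A3 and the AP-1 subunit gene FOSL2 had -0.31, -0.25 and -0.15, and FOSL2 was not called with the step term (adjusted p = 0.103). Under that term 8 of the 18 were lower and none higher, against 1222 lower and 932 higher among all 17256 genes tested. JUNB, another AP-1 subunit, rose at 0.28 (adjusted p = 0.0163), but not with the step term, at 0.08 (adjusted p = 0.403), nor without replicate 1 of Okbyeongpung-san or replicate 1 or 2 of vehicle (adjusted p up to 0.0905). NR4A1 was called in 1 of 6 such fits (adjusted p up to 0.146).

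KLF transcription factors had 5 of 11 higher and none lower, with a median log2 fold change of 0.048. KLF2, known in endothelium and T cells as a factor of the quiescent state, gave 10.8, 9.76 and 9.57 CPM in treated cells and 5.06, 5.92 and 6.19 CPM in vehicle (0.82 ± 0.13, adjusted p = 4.17e-05). The levels at 20 and 100 µg/mL were 10.3 CPM and 9.72 CPM, and 500 and 20 µg/mL differed by -0.06 ± 0.12. All extract groups of 3 libraries were above vehicle for KLF2, the lowest being Menthae Herba at 100 µg/mL with 7.85 CPM. Over Saposhnikoviae Radix at 500 µg/mL its log2 fold change was 0.17 (edgeR adjusted p = 0.465). KLF10 and KLF11, early targets of TGF-beta, had 0.41 and 0.41, and KLF7 and KLF6 0.26 and 0.14. KLF10 and KLF11 were not called with the step term, at 0.09 and 0.20 (adjusted p = 0.469 and 0.288), nor without replicate 2 or 3 of either group (adjusted p up to 0.0658 and 0.154). HES4, a transcriptional repressor downstream of Notch, followed a like course, at 0.68, 0.71 and 0.70 from 20 to 500 µg/mL. However, its vehicle libraries were uneven, at 3.51, 5.61 and 5.76 CPM, and its call was lost without replicate 1 of either group (adjusted p up to 0.139). In the TGF-beta and mesenchymal list 3 of 19 rose, among them LTBP2 and PMEPA1, at 0.26 and 0.21.

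Stress response lists differed in how many members were called, set against 1.96% higher and 1.43% lower among all genes tested. SESN2, a sestrin that restrains mTORC1 and a target of both p53 and ATF4, gave 10.3, 10.5 and 9.06 CPM in treated cells against 15.9, 14.9 and 13.3 CPM in vehicle (-0.55 ± 0.10, adjusted p = 0.000452). It and DDIT4, another inhibitor of mTORC1, at -0.30, were the 2 of 27 ATF4 list members that fell, and none rose. Among 22 p53 targets MDM2 and AEN fell, at -0.22 and -0.37, and XPC rose at 0.14. With the step term DDIT4, MDM2 and AEN read -0.01, -0.08 and 0.03 and none of the 3 was called, nor was XPC (adjusted p = 0.0616); DDIT4 and AEN were called in 0 of 6 and MDM2 in 2 of 6 fits that left out a library. Of 26 NRF2 targets, which are constitutively high in A549, 1 rose, the transporter ABCC3 at 0.18. By edgeR and by DESeq2, 0 of 5 tested metallothionein and zinc response genes and 0 of 9 glucocorticoid receptor targets were called; at an unadjusted p under 0.05 the counts were 2 lower in the first list, and 1 higher and 2 lower in the second. In the heat shock list 1 of 15 fell, DNAJB1 at -0.16, which was not called with the step term (adjusted p = 0.0839). Under that term 9 of the 15 were lower, against 1222 of all 17256 genes tested. Chaperones of the endoplasmic reticulum had 5 of 19 higher and none lower, with a median of 0.128. HYOU1 gave 109, 109 and 104 CPM in treated cells and 93.7, 90.6 and 90.4 CPM in vehicle (0.25 ± 0.03, adjusted p = 2.57e-06), and PDIA4, HSP90B1, CALR and HSPA5 were between 0.13 and 0.19. CALR, HSP90B1 and HSPA5 were no longer called with the step term (adjusted p = 0.86, 0.806 and 0.124), and CALR and HSP90B1 were called in 0 of 6 fits that left out a library. XPC was called in 1 of 6 of these, and DNAJB1 in 4 of 6, not without replicate 3 of Okbyeongpung-san or replicate 1 of vehicle (adjusted p up to 0.118).

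Epithelial and metabolic genes changed by small steps. KRT8, the keratin of simple epithelium and 1 of the markers of the line, gave 2940, 2820 and 2910 CPM in treated cells and 3500, 3640 and 3390 CPM in vehicle, a log2 fold change of -0.27 ± 0.04 (adjusted p = 8.44e-05). Its partner KRT18 had -0.17 and did not pass (adjusted p = 0.148), although it did with the step term, at -0.34 (adjusted p = 4.5e-05), while KRT4 fell at -0.44 ± 0.05 (adjusted p = 1.96e-07). Cholesterol synthesis had 4 of 25 lower and none higher, with a median of -0.100. Among them HMGCS1, a synthase early in the pathway, INSIG1, which restrains it, and IDI1, an isomerase, had -0.19, -0.18 and -0.18. Under the step term 2 of the 25 were lower and 2 higher, with a median of 0.019. Among all 17256 genes tested 1222 were lower and 932 higher under it. HMGCS1 and IDI1 were not called with it (adjusted p = 0.239 and 0.302). HMGCS1 was not called without replicate 1 of Okbyeongpung-san (adjusted p = 0.0836), while INSIG1 was called in 0 of 6 and IDI1 in 1 of 6 fits that left out a library. Of 17 selenoprotein genes SELENOW and SELENOS fell, at -0.31 and -0.20, and SELENOS was called in 1 of 6 such fits (adjusted p up to 0.183) and not with the step term, at -0.08 (adjusted p = 0.362).

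Some growth genes fell, set against 1.43% lower among all genes tested. In DNA replication and G1/S 3 of 26 fell, CCNE1, RRM1 and CDC6, at -0.22, -0.12 and -0.12, with a median of -0.112, and in mitosis 2 of 26, BIRC5 and CDC20, at -0.20 and -0.18. MKI67, the proliferation marker, was at 0.08 (adjusted p = 0.77). Ribosome biogenesis had 3 of 24 lower, led by ODC1 of polyamine synthesis at -0.22, and 1 of 34 ribosomal protein genes fell, RPL14 at -0.20. CCNE1, CDC6, BIRC5, CDC20 and RPL14 were not called with the step term (adjusted p = 0.0596, 0.124, 0.77, 0.0649 and 0.214). Under that term, which called 1222 of all 17256 genes tested lower, the replication list had a median of -0.035 with 3 lower. Under it also 11 mitosis, 12 ribosome biogenesis and 10 ribosomal protein genes were lower. Of these genes CDC6, BIRC5 and RPL14 were called in 0 of 6 fits that left out a library, CCNE1 in 1 of 6 and CDC20 in 5 of 6, not without replicate 2 of Okbyeongpung-san (adjusted p = 0.0799). Of 15 mitochondrially encoded genes, with a median of 0.277, 0 were called by edgeR or DESeq2 and 1 was higher at an unadjusted p under 0.05; with the step term the median was -0.463 and 5 were lower. Of 27 nuclear genes of oxidative phosphorylation, with a median of -0.119, 0 were called by edgeR, 2 were lower by DESeq2 and 10 were lower at an unadjusted p under 0.05. Neither tool called any of 14 fatty acid and LXR genes (3 higher at an unadjusted p under 0.05) or of 9 tested mucin and secretory genes (1 higher and 2 lower).

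By size of change among called genes of 5 CPM or more whose groups did not overlap, the rises not yet named were ANKRD18A, MAMDC4 and RHPN1, at 0.55, 0.55 and 0.54. ANKRD18A has a close paralog, so its counts are uncertain, and it was called in 1 of 6 fits that left out a library and not with the step term (adjusted p = 0.27). MAMDC4 was not called without replicate 2 or 3 of vehicle (adjusted p up to 0.0727). The falls not yet named were UBAP1L, RSRP1, PANK1, EBF1, TM4SF4, EMP1, ZBTB34 and POLR3K, from -0.66 for UBAP1L to -0.44 for POLR3K. Of these 8, RSRP1, PANK1 and EBF1 were also called with the step term. UBAP1L was not called without replicate 2 of Okbyeongpung-san or replicate 3 of vehicle (adjusted p up to 0.103), and POLR3K was called in 1 of 6 fits that left out a library. PANK1, which starts coenzyme A synthesis, gave 7.13, 7.27 and 6.98 CPM in treated cells and 10.7, 10.1 and 9.26 CPM in vehicle (-0.48 ± 0.08, adjusted p = 0.00027). RSRP1 gave 16.4, 15.6 and 15.2 CPM in treated cells against 22.8, 21.6 and 21.8 CPM in vehicle (-0.48 ± 0.08, adjusted p = 0.000223). Among called genes whose groups did not overlap, the leading rise by difference in CPM was CYP24A1, the enzyme that inactivates vitamin D, with 1170 ± 15.5 CPM in treated cells and 1050 ± 30.3 CPM in vehicle (SD, n = 3 each). The leading fall among such genes was ALDH1A1, a retinaldehyde dehydrogenase abundant in A549, with 5550 ± 33.7 CPM in treated cells and 6260 ± 29.9 CPM in vehicle (SD, n = 3 each). Their log2 fold changes were 0.18 and -0.16, and ALDH1A1 read -0.02 with the step term (edgeR adjusted p = 0.807) and was called in 0 of 6 fits that left out a library. LAMA5 (3 of 6 such fits), TNS3, HSP90B1 and CALR followed among the rises, and KRT8, HNRNPA2B1, YWHAZ and EIF4G2 among the falls.

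Soyo-san at 500 µg/mL is also a decoction, and its libraries lie on the same side of the step. Replicate 1 of Soyo-san stood apart: mitochondrially encoded genes took 19.42% of its counts, against 14.3 and 15.07% in replicates 2 and 3, and its counts differed from theirs by a chi-square per degree of freedom of 24.07 and 17.18, against 3.116 between those 2. Against Soyo-san, Okbyeongpung-san at 500 µg/mL differed in 23 genes (0.133% of those tested), 15 higher (0.0869%) and 8 lower (0.0464%). Left-out libraries brought the total to 11 to 15, whichever of the 6 it was, and to 11, 7 higher and 4 lower, without that replicate. Of the genes described here, CYP1A1, CYP1B1, TIPARP, ID4, ID2, ATOH8, GPX1 and IGFBP5 were called in all 6 of these fits. Okbyeongpung-san lay above Soyo-san without overlap in 8.01% of genes tested and below it in 4.46%. Most of the chemokine genes did not pass in this comparison. CXCL1 gave 6.16, 5.32 and 5.73 CPM with Okbyeongpung-san and 8.47, 8.67 and 7.25 CPM with Soyo-san (-0.53 ± 0.16, adjusted p = 0.364), and CXCL8 4.53, 5.15 and 4.79 CPM with Okbyeongpung-san and 6.37, 6.27 and 6.25 CPM with Soyo-san (-0.41 ± 0.14, adjusted p = 0.596). CXCL1 passed with the step term in the fit, at -0.53 (adjusted p = 0.0395), and CXCL8 did not. A p that missed the threshold does not show that the extracts act alike on these genes. CXCL5 was lower with Okbyeongpung-san, at 99.1, 104 and 103 CPM against 117, 114 and 120 CPM with Soyo-san (-0.23 ± 0.05, adjusted p = 0.021), a call made in 1 of 6 fits that left out a library.

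Targets of the aryl hydrocarbon receptor (AhR), the sensor of planar aromatic compounds, were lower with Okbyeongpung-san than with Soyo-san in 3 of 6 tested, and none was called higher. CYP1A1, its classical target, gave 1.5, 1.41 and 1.45 CPM with Okbyeongpung-san, 2.54, 3.06 and 3.04 CPM with Soyo-san and 0.929, 0.963 and 1.16 CPM with vehicle. The Okbyeongpung-san libraries lay between the other groups without overlap, with log2 fold changes of -1.0 ± 0.18 over Soyo-san (adjusted p = 0.00171) and 0.53 ± 0.20 over vehicle (adjusted p = 0.137). CYP1B1 gave 106, 112 and 109 CPM with Okbyeongpung-san, 148, 156 and 158 CPM with Soyo-san and 97.2, 94.5 and 95.5 CPM with vehicle. Its log2 fold change was -0.52 ± 0.04 over Soyo-san (adjusted p = 1.93e-11) and 0.20 ± 0.04 over vehicle (adjusted p = 0.00303), a call that library totals in place of TMM scaling did not make. TIPARP, an ADP-ribosyltransferase that limits AhR, had 37.8, 42.1 and 38.5 CPM with Okbyeongpung-san and 52.4, 57.7 and 58.6 CPM with Soyo-san (-0.53 ± 0.05, adjusted p = 5.03e-09), and 0.02 against vehicle.

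Of 13 tested ID and BMP signalling genes 4 were higher with Okbyeongpung-san than with Soyo-san, and none was called lower. ID4, an inhibitor of helix-loop-helix factors, gave 11.8, 12 and 10.8 CPM with Okbyeongpung-san and 5.73, 6.93 and 6.62 CPM with Soyo-san (0.82 ± 0.09, adjusted p = 2.13e-07). Its relatives ID2 and ID3 differed by 0.41 ± 0.06 and 0.29 ± 0.06 (adjusted p = 2.12e-05 and 0.0397), and ATOH8, a helix-loop-helix factor, by 0.68 ± 0.09 (adjusted p = 1.17e-05). ID3 lost its call in all 6 fits that left out a library, and the others kept theirs. Against vehicle none of these 4 was called with Okbyeongpung-san: ID4 was at -0.07, ID2 at -0.07, ID3 at -0.19 and ATOH8 at -0.21. The step term gave ID2 -0.17 (adjusted p = 0.0408) and ID3 -0.30 (adjusted p = 0.00107). GPX1, a glutathione peroxidase that contains selenium, had 73.5, 70.1 and 71.1 CPM with Okbyeongpung-san, 46.8, 51.1 and 47.5 CPM with Soyo-san and 78.2, 77.1 and 80.6 CPM with vehicle. The Okbyeongpung-san libraries exceeded all of Soyo-san (0.54 ± 0.06, adjusted p = 1.01e-07) and lay under all of vehicle, where the difference did not pass (-0.12, adjusted p = 0.28). IGFBP5, which binds insulin-like growth factors, was higher than with Soyo-san by 0.46 ± 0.08 (adjusted p = 0.000957) and at 0.00 against vehicle.

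**Figure D5:**
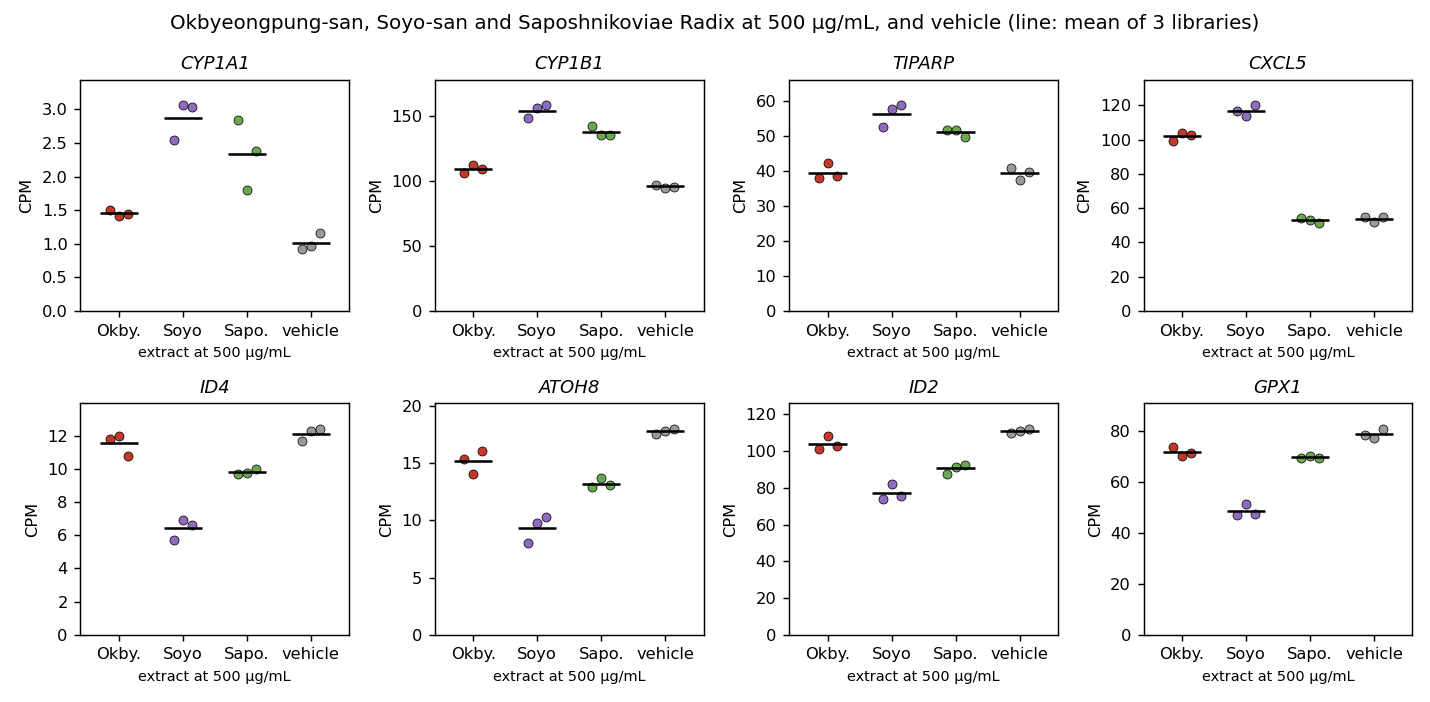
CPM of 8 genes in each of 3 libraries (points) and their mean (line) for Okbyeongpung-san (Okby.), Soyo-san (Soyo) and Saposhnikoviae Radix (Sapo.) at 500 µg/mL, and for vehicle. The Okbyeongpung-san libraries of CYP1A1, CYP1B1 and TIPARP lie below all Soyo-san libraries, and those of ID4, ATOH8, ID2 and GPX1 above them; for CXCL5 the means are 102 CPM with Okbyeongpung-san, 117 CPM with Soyo-san, 52.9 CPM with Saposhnikoviae Radix and 53.9 CPM with vehicle.

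Saposhnikoviae Radix, as the decoction's own ingredient, was given alone at 500 µg/mL, and how much of it the decoction held is not given in the labels. Okbyeongpung-san differed from it in 169 genes (0.979% of those tested), 98 higher (0.568%) and 71 lower (0.411%), and the 2 groups lie on opposite sides of the step. With the step term 73 were higher and 49 lower, of which 35 and 6 were among those first called. With any 1 of the 6 libraries left out 49 to 67 genes were called. All 5 CXC chemokines were higher with Okbyeongpung-san. CXCL1 gave 6.16, 5.32 and 5.73 CPM with Okbyeongpung-san and 0.939, 1.42 and 1.07 CPM with Saposhnikoviae Radix, a log2 fold change of 2.42 ± 0.20 (adjusted p = 1.59e-11). For CXCL5 the values were 99.1, 104 and 103 CPM with Okbyeongpung-san and 54.1, 53.2 and 51.4 CPM with Saposhnikoviae Radix (1.01 ± 0.05, adjusted p = 2.76e-20). Vehicle, for comparison, averaged 0.999 CPM for CXCL1 and 53.9 CPM for CXCL5. CXCL8 at 2.12 ± 0.18, CFB at 1.90 ± 0.23, IL32 at 1.22 ± 0.17, CCL2 at 1.10 ± 0.16, C3 at 0.77 ± 0.07 and TNFAIP3 at 0.77 ± 0.10 were also higher, and these 6 were called with the step term. ICAM1 and LCN2, at 1.44 and 1.02, were not called with it. The lowest genes, MVP-DT, FCGBP, RPSAP58 and AP1M2, at -0.76 to -0.59, lost their calls with the step term; RPSAP58 is a copy of a ribosomal protein gene, whose reads it may share. TIPARP was lower with Okbyeongpung-san, at -0.31 ± 0.05 (adjusted p = 0.000612), also with that term.

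Among the 18 extract groups with 3 libraries, Okbyeongpung-san at 500 µg/mL was below 2 other groups for CXCL1, Guibi-tang at 500 µg/mL with a mean of 8.15 CPM and Soyo-san at 500 µg/mL with 8.13 CPM. Those 2 groups, and no other, were also above it for CXCL2, CXCL3, CXCL8, IL32, CXCL5, CCL2, CFB, C3, TNFAIP3, LCN2 and ICAM1. For CCN1 its mean of 24.9 CPM was the lowest but one, with Guibi-tang at 500 µg/mL at 24.6 CPM, while the highest extract group was at 33.2 CPM, in Menthae Herba at 500 µg/mL, and vehicle stood at 34.5 CPM. AMOTL2 was likewise highest in vehicle, at 110 CPM, with the other extract groups between 78.1 and 93.7 CPM, and Okbyeongpung-san at 80.5 CPM. Vehicle was also the highest of the 19 groups for ANKRD1, BTG2, SESN2, KRT8, RSRP1, TM4SF4, EMP1, ZBTB34, EBF1 and UBAP1L. It was the lowest for KLF2, HES4, NFKBIA, NFKBIZ, TNFAIP3 and IL32. For these genes every extract group lay on the same side of vehicle, and the extracts and the separate name series of vehicle cannot be told apart. Other genes did not follow: from the highest, vehicle ranked 16 for CXCL1, 15 for C3, 5 for DUSP1 and 6 for KRT4. These ranks are over group means and were not tested.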

How the data were processed

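RNA of A549 cells was sequenced in 60 libraries, and the deposited table holds 60675 genes. Per the submitters' processing notes FastQC 0.11.9, Trim Galore 0.6.5, STAR 2.7.3a, RSEM 1.3.3 and hg38 were used, and the authors deposited RSEM expected counts per gene, with no normalization. RSEM shares out reads that match several genes, and 10.5% of values were not whole. The annotation release and strand setting are not given in the sources used here. Symbols came from a table of current gene names for 56558 genes and from GENCODE 29 for 497, and 3620 genes had none, with 0.0703 to 0.0819% of counts.

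Expected counts were rounded to whole numbers and fitted with edgeR 4.0.16 (R 4.3.3, limma 3.58.1) by its quasi-likelihood test, with TMM scaling, filterByExpr and 1 fit of the 57 libraries in 19 groups of 3. Soshiho-tang, with 1 library per dose, was not used. All 60 libraries held 18330592 to 35308791 counts. P-values were adjusted by Benjamini-Hochberg over 17256 genes in each of 6 comparisons, and genes under 0.05 were called. CPM is a count scaled to the library total, and fold changes are edgeR estimates with a prior count. DESeq2 1.42.0, other scalings, other filters, a term for library order and a replicate block were alternatives.

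Named genes were called, at 5 CPM or more in either group, with groups that did not overlap: the 14 highest and 14 lowest fold changes and the 5 largest CPM differences in each direction. From each list up to 4 called and 2 uncalled members were added, with CXCL1, IL32 and CCN1, and 4 highest and 4 lowest genes of each other comparison. Other genes were chosen after their values were seen. The members and lists were chosen with earlier results of these data known. The values of some genes are not reported here.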

Additional observations from a re-analysis of the deposited data

How the results depend on the processing

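For Okbyeongpung-san at 500 µg/mL against vehicle, relative log expression scaling called 579 genes, leaving out mitochondrially encoded genes 583, no filter on low counts 789 and DESeq2 692, against 585. Library totals in place of TMM called 265 (198 higher and 67 lower, against 338 and 247), the library-order term 2154 and a fit of the 2 groups alone 2854. With 1 library left out the range was 272 to 340. At 100 µg/mL against vehicle (237 genes), library totals called 91 (61 higher and 30 lower, against 126 and 111), no filter 757 and the order term 1216, with 70 to 303 when 1 library was left out. At 20 µg/mL (188 genes), library totals called 60, no filter 533, the order term 1644, the 2 groups alone 934 and DESeq2 289, with 70 to 117. For 500 against 20 µg/mL (17 genes) no filter called 93 (45 higher and 48 lower), with 10 to 14 when 1 library was left out. Against Soyo-san (23 genes), library totals called 15, no filter 116 and the order term 51, with 11 to 15 when 1 library was left out. A fit of the 18 libraries of Soyo-san and Okbyeongpung-san alone, which share the first number of their names, called 10. That alternative was chosen after seeing the data. Against Saposhnikoviae Radix (169 genes), library totals called 73 (50 higher and 23 lower, against 98 and 71), no filter 1389, the 2 groups alone 3515 and DESeq2 304, with 49 to 67. The causes were not tested. Of 95 named genes called against vehicle at 500 µg/mL, the order term kept the direction and call of 62, library totals of 57 and no filter of 76. The order term turned MT-RNR2 to -0.41, MT-CO1 to -0.47, MT2A to -0.365, B2M to -0.25, RPS2 to -0.205, MYC to -0.16, NCL to -0.25, CD46 to 0.19, TNFRSF10B to 0.25 and AEN to 0.032 on the log2 scale. The difference in mitochondrial share, 2.25 percentage points, lay between 2.08 and 2.39 with 1 library left out.

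Replicate numbers did not pair the libraries: same-numbered libraries at 500 µg/mL and in vehicle had deviations correlated at -0.0271, -0.0259 and -0.0133. With a replicate block 230, 257 and 611 genes were called at 20, 100 and 500 µg/mL against vehicle, 18 at 500 against 20 µg/mL, 22 against Soyo-san and 234 against Saposhnikoviae Radix, and all 95 named calls against vehicle were kept.

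With 3 libraries a group and 22719326 to 35308791 counts each, genes near 1 CPM such as ICAM1 and CFB rest on few reads per library, and small differences in them were not detectable at this depth.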
